A study of Mus musculus with 9 samples.

Results

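The 10 genes described here encode subunits of the vacuolar proton pump: Atp6v0d2, Atp6v0d1, Atp6v0a1, Atp6v0b and Atp6v0c of its membrane sector, and Atp6v1a, Atp6v1b2, Atp6v1c1, Atp6v1d and Atp6v1h of its cytosolic sector. They were named by symbol, 10 of the 45777 genes measured, and all 10 passed the filter on low values. Atp6v0d2 was chosen by its own measured values, the higher TPM in one treated group of these same samples, so the differences of the 10 genes are a description. No p-value is printed for any of them, and a count of them past a threshold supports nothing. The question was whether Atp6v0d2 moves alone or with the rest of the pump. A further 23 genes of the pump, its accessory proteins and its assembly and regulation stood beside them, 16 of which passed the filter.

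The samples were CD11b+ cells isolated from dissociated livers of mice given APAP (acetaminophen, which injures the liver in overdose), profiled by bulk RNA sequencing. CD11b, an integrin chain, sits on the surface of monocytes, many macrophages and neutrophils. All 9 samples came from APAP-treated mice, with livers harvested at 48 h, and formed 3 groups of 3. The PBS group received PBS, the HEK-EV group received SIRP-EV (extracellular vesicles) made from HEK cells at 8 h, and the MSC-EV group received SIRP-EV made from MSC at 8 h. The labels do not spell out SIRP or MSC, and MSC is read here as mesenchymal stem or stromal cells. Strain, sex, age and APAP dose are not given in the sources used here, nor whether the samples of a group came from separate animals, so errors measure only the spread between these samples.

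The vacuolar proton pump, or V-ATPase, uses ATP to push protons into lysosomes, endosomes and other compartments, and in some cells across the plasma membrane. Its cytosolic V1 sector holds the catalytic A subunits and the nucleotide-binding B subunits, stalks that join them to the membrane, and the regulatory H subunit. Its V0 sector holds the proteolipid ring of c and c″ subunits, the a subunit that forms the proton path, and the d subunit, which couples the ring to the central stalk. Most d subunit in the body is the d1 isoform, while d2 is known from osteoclasts, kidney and some macrophages. In macrophages the pump acidifies the lysosomes that digest engulfed cells.

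The d2 and d1 isoforms come from separate genes, and the stretch of coding sequence in which they are most alike is printed here because reads can be shared only where sequences match. In the GENCODE M21 coding sequences (GRCm38), Atp6v0d2 had 1053 bases and Atp6v0d1 had 1056, each over 8 coding exons, with 65.7% identical bases over 1056 aligned columns. The longest run of identical aligned bases was 17, at coding bases 150 to 186 with its flanks of 10 bases. It lies in 1 exon of each gene, on the minus strand, at chr4:19910703-19910739 for Atp6v0d2 and chr8:105539437-105539473 for Atp6v0d1. Both are written 5′ to 3′ along the coding strand, with the shared run in capitals.
Atp6v0d2: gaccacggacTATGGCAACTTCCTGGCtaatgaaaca
Atp6v0d1: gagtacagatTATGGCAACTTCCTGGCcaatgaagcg

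Expression is given as TPM, the share of a fixed total of transcripts, which is scaled by gene length and so allows levels of different genes to be set side by side. Differences between groups are differences of mean log2(TPM + 1) with the standard error (SE) of a limma fit to all 9 samples. Atp6v0d2 (gene ID 242341, chromosome 4, 19876838 to 19922566, minus strand, mm10) was at 9.59, 2.91 and 3.07 TPM in PBS replicates 1 to 3. It was at 6.99, 5.59 and 4.095 TPM in the HEK-EV samples. It was at 35.2, 30.3 and 16.1 TPM in the MSC-EV samples. The 3 MSC-EV samples were all above the 6 others, the HEK-EV samples lay inside the PBS range, and PBS replicate 1 was the highest of the controls. The group means were 5.19 ± 3.81 TPM in PBS, 5.56 ± 1.45 in HEK-EV and 27.2 ± 9.92 in MSC-EV (SD, n = 3). The mean was 5.24-fold higher in MSC-EV than in PBS, a log2 difference of 2.28 (SE 0.401), the difference by which the gene was chosen. Without PBS replicate 1 it was 9.09-fold higher, and without any other 1 sample 4.29-fold to 6.31-fold. It was 4.89-fold higher than in HEK-EV, a log2 difference of 2.06 (SE 0.401). By size of the increase Atp6v0d2 ranked 26 of 13820 genes in the comparison with PBS and 3 in the comparison with HEK-EV, which share the MSC-EV samples.

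Atp6v0d1, the other d isoform (gene ID 11972, chromosome 8, 105524461 to 105566064, minus strand), was at a far higher level and nearly even across groups. It was at 192, 195 and 205 TPM in PBS, 193, 202 and 198 in HEK-EV, and 210.5, 216 and 189 in MSC-EV. The lowest and the highest of the 9 values both belonged to MSC-EV samples, and the groups overlapped. The log2 difference between MSC-EV and PBS was 0.05 (SE 0.0600, 95% interval -0.08 to 0.19).

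**Figure D1:**
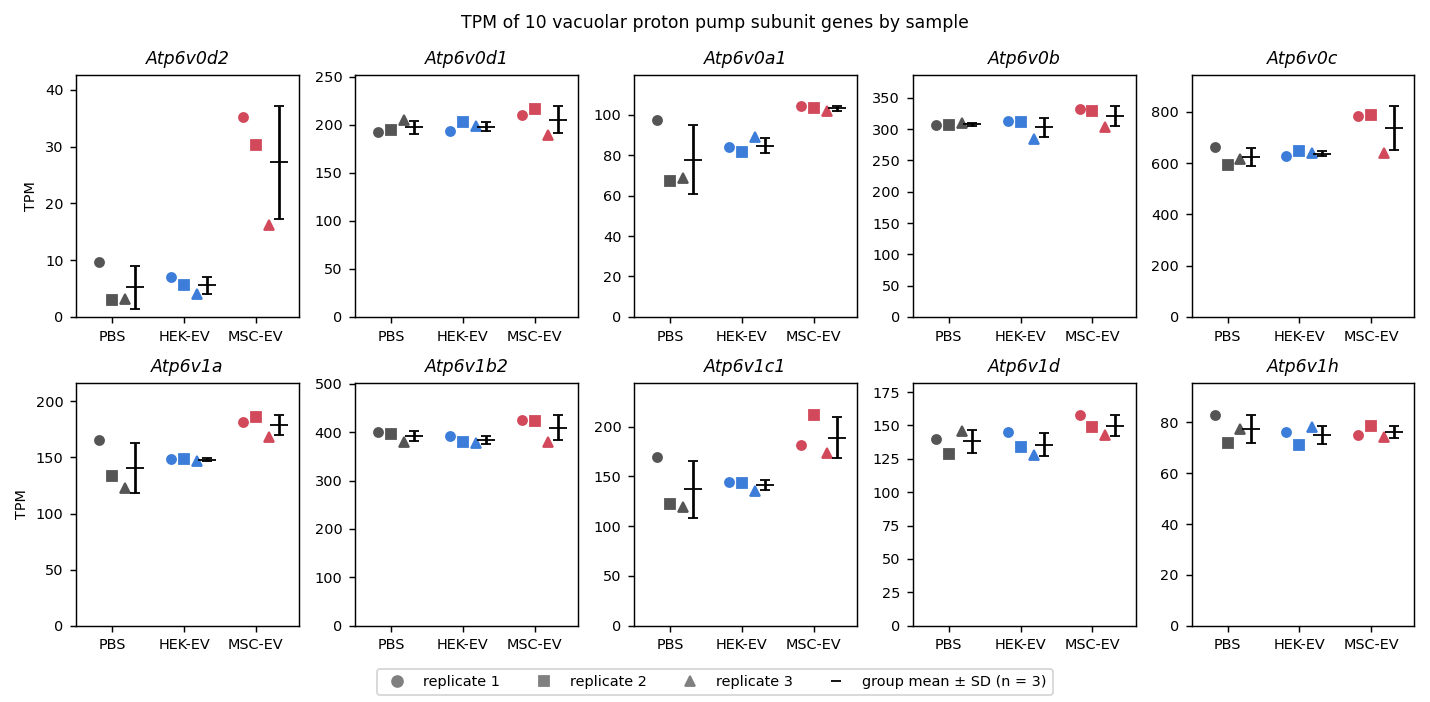
TPM of the 10 pump subunit genes in each sample (linear axes from 0, 1 panel per gene), by group, with marker shape for the replicate and bars for the group mean ± SD (n = 3). Atp6v0d2 was at 16.1 to 35.2 TPM in MSC-EV and at 2.91 to 9.59 in the 6 other samples, while Atp6v0d1 lay between 189 and 216 in all 9.

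In the d pair, Atp6v0d2 made up 4.75%, 1.47% and 1.48% of summed d-subunit TPM in PBS. The share in HEK-EV was 3.49%, 2.69% and 2.02%. In MSC-EV it reached 14.3%, 12.3% and 7.83%. All 3 MSC-EV shares were above the 6 others, and Atp6v0d1 still held most of the d-subunit RNA in every sample. Summed d-subunit TPM averaged 202.6 ± 5.18 in PBS, 203.5 ± 4.05 in HEK-EV and 232.5 ± 23.4 in MSC-EV (SD, n = 3). Per 1000 TPM of the 9 other members together, Atp6v0d2 was at 2.42 ± 1.65 TPM in PBS, 2.63 ± 0.659 in HEK-EV and 11.3 ± 3.55 in MSC-EV (SD, n = 3).

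Atp6v0a1, one isoform of the proton-path a subunit (gene ID 11975, chromosome 11, 101009422 to 101063719, plus strand), was at 97.5, 67.15 and 68.5 TPM in PBS. It was at 83.9, 81.5 and 88.75 TPM in HEK-EV and at 104, 103 and 102 TPM in MSC-EV. The MSC-EV samples were above all others, by little over PBS replicate 1. The log2 difference was 0.42 between MSC-EV and PBS (SE 0.123, 95% interval 0.15 to 0.70) and 0.28 between MSC-EV and HEK-EV.

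The ring subunits are Atp6v0c, the c proteolipid (gene ID 11984, chromosome 17, 24163865 to 24169678, minus strand), and Atp6v0b, the related c″ proteolipid (gene ID 114143, chromosome 4, 117884330 to 117887333, minus strand). Atp6v0c had the highest level of the 10 genes, at 662.5, 594.8 and 618 TPM in PBS, 627, 648 and 638.5 in HEK-EV, and 784, 789.6 and 640.4 in MSC-EV. MSC-EV replicates 1 and 2 were above every other sample, and MSC-EV replicate 3 lay within the range of the other groups. Its log2 difference between MSC-EV and PBS was 0.23 (SE 0.0841, 95% interval 0.05 to 0.42). A processed copy of the gene, Atp6v0c-ps2, was listed at a mean of 305.3 TPM, so reads may be split between them and both levels are uncertain. Atp6v0b lay between 285 and 332 TPM in all 9 samples with overlapping groups, and its log2 difference was 0.06 (SE 0.0570).

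In the V1 sector, Atp6v1a, the catalytic A subunit (gene ID 11964, chromosome 16, 44085402 to 44139702, minus strand), was at 165, 133 and 122 TPM in PBS. It was at 148, 149 and 146 TPM in HEK-EV and at 182, 186 and 168.5 TPM in MSC-EV. The MSC-EV samples were again above all 6 others, with PBS replicate 1 next. The log2 difference was 0.36 between MSC-EV and PBS (SE 0.0977, 95% interval 0.14 to 0.58) and 0.27 between MSC-EV and HEK-EV.

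Atp6v1c1, the C subunit, which holds the stalks to the membrane sector and leaves when the pump comes apart (gene ID 66335, chromosome 15, 38661904 to 38692444, plus strand), had the largest difference of the 9 other members. It was at 169.8, 122 and 119 TPM in PBS, 145, 143 and 135.6 in HEK-EV, and 182, 212 and 173 in MSC-EV. The MSC-EV samples did not overlap the others, although MSC-EV replicate 3 was only just above PBS replicate 1. The log2 difference was 0.47 between MSC-EV and PBS (SE 0.130, 95% interval 0.18 to 0.77) and 0.41 between MSC-EV and HEK-EV.

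The remaining V1 members differed less. Atp6v1b2, the B subunit isoform found in most tissues (gene ID 11966, chromosome 8, 69088736 to 69113718, plus strand), lay between 377.9 and 425.8 TPM in all 9 samples, with a log2 difference of 0.06 between MSC-EV and PBS (SE 0.0585). Atp6v1d, of the central stalk (gene ID 73834, chromosome 12, 78842982 to 78862008, minus strand), was at 138 ± 8.57 TPM in PBS, 136 ± 8.57 in HEK-EV and 150 ± 7.56 in MSC-EV (SD, n = 3), a log2 difference of 0.12 between MSC-EV and PBS (SE 0.0689). Atp6v1h, the regulatory H subunit (gene ID 108664, chromosome 1, 5082978 to 5163213, plus strand), was at 77.4 ± 5.52, 75.2 ± 3.59 and 76.1 ± 2.30 TPM in the same order, a log2 difference of -0.02 (SE 0.0653, 95% interval -0.17 to 0.12). Groups overlapped for all 3 of these genes.

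By mean level over the 9 samples the order was Atp6v0c (667 TPM), Atp6v1b2 (395), Atp6v0b (310.5), Atp6v0d1 (200.2), Atp6v1a (155.7), Atp6v1c1 (155.6), Atp6v1d (141), Atp6v0a1 (88.55), Atp6v1h (76.2) and Atp6v0d2 (12.65). Neighbours in this order overlapped in their ranges over samples for Atp6v1a with Atp6v1c1, for Atp6v1c1 with Atp6v1d, and for Atp6v0a1 with Atp6v1h, and for no other neighbouring pair. Atp6v0d2 was the lowest of the 10 in every sample. Its highest value was 12.1 times its lowest, against 1.13 to 1.78 times for the 9 others.

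Between MSC-EV and PBS, 1 of the 10 members (Atp6v0d2) was past an adjusted p of 0.05 in limma, where 5.11% of the 13820 genes tested were past it, 1.86% higher and 3.25% lower in MSC-EV. Nothing is read from that count, since the difference chose the gene. Of the 9 other members, 8 were higher and 1 (Atp6v1h) was lower in MSC-EV, with a median log2 difference of 0.12 and a range of -0.02 to 0.47. The median over all genes tested was 0.01. None of the 9 was called by limma at an adjusted p of 0.05, 4 of them were past an unadjusted p of 0.05, and 23% of all genes tested were past the latter. All 3 MSC-EV samples lay above all 3 PBS samples for 3 of the 9 (Atp6v0a1, Atp6v1a and Atp6v1c1), an arrangement found for 11.2% of the genes tested, and none lay below all of them, as 14.9% of the genes tested did.

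The counts changed with single libraries. No member was called without PBS replicate 2, without PBS replicate 3, without MSC-EV replicate 1 or without MSC-EV replicate 2. Over all genes the count of calls fell from 706 to 5, 7, 25 and 59 in the same order. Leaving out HEK-EV replicate 2 gave 297, and leaving out MSC-EV replicate 3 gave 469 (3.39%) and a call of Atp6v0c beside Atp6v0d2. Without PBS replicate 1 the count over all genes was 1861 (13.5%), and 4 members were called, namely Atp6v0d2, Atp6v0a1, Atp6v1a and Atp6v1c1.

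Between MSC-EV and HEK-EV, again 1 of the 10 members (Atp6v0d2) was past an adjusted p of 0.05, beside 5.91% of all genes tested, 1.51% higher and 4.4% lower in MSC-EV. All 9 other members were higher in MSC-EV, by a median of 0.14 on the log2 scale and a range of 0.02 to 0.41, against a median of -0.02 over all genes. None of the 9 was called by limma, and 4 were past an unadjusted p of 0.05, as were 23.3% of all genes tested. The same 3 genes, Atp6v0a1, Atp6v1a and Atp6v1c1, had MSC-EV samples above all HEK-EV samples, as did 12.6% of the genes tested, and none had them below, as 17.5% did. Without any 1 of the HEK-EV samples, and without MSC-EV replicate 1 or 2, no member was called, and at most 31 genes in all were, down from 817. Without PBS replicate 1, 1369 genes (9.91%) and the 4 members Atp6v0d2, Atp6v0a1, Atp6v1a and Atp6v1c1 were called. This comparison shares its MSC-EV samples with the one against PBS, so the 2 are not independent.

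Between HEK-EV and PBS, 0 of the 10 members and 0% of all genes tested were past an adjusted p of 0.05 in limma. At an unadjusted p of 0.05, 0 of the 10 members and 3.58% of all genes were past it. Groups without overlap were found for 0 of the 10 members, beside 5.51% of all genes with HEK-EV higher and 2.29% with HEK-EV lower. Of the 9 members other than Atp6v0d2, 5 were higher and 4 lower in HEK-EV, with a range of -0.04 to 0.14. Their median was 0.00385, and that of all genes 0.03. The log2 difference of Atp6v0d2 was 0.22 (SE 0.401, 95% interval -0.68 to 1.13), an interval wide enough to hold a more than 2-fold increase.

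**Figure D2:**
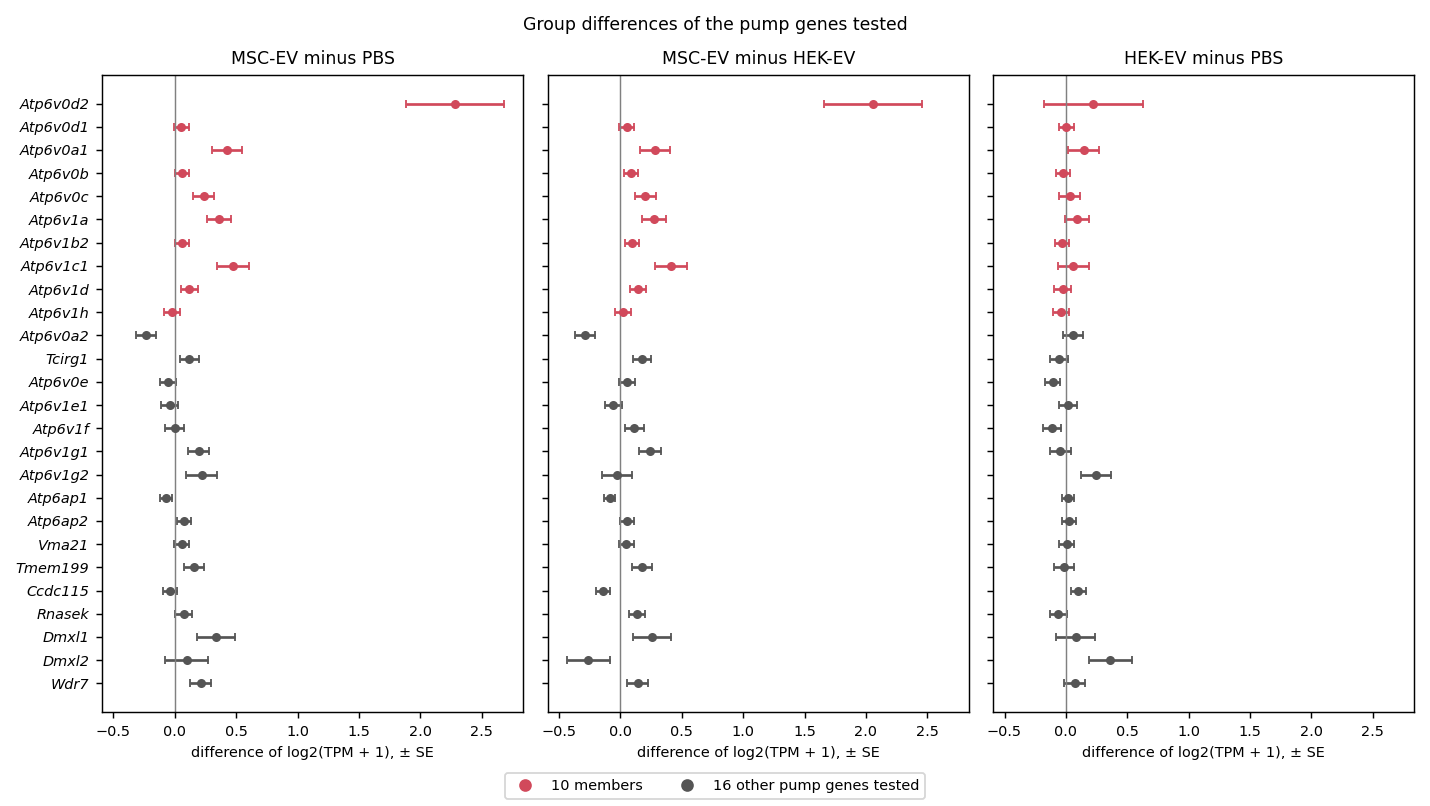
Differences of log2(TPM + 1) between groups (x axis, points, with bars for ± SE of the limma fit) for the 10 members and the 16 other pump genes tested (y axis), 1 panel per comparison. Atp6v0d2 lies at 2.28 and 2.06 in the comparisons with MSC-EV, and all other pump genes lie between -0.29 and 0.47 in those panels.

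The remaining pump genes were not named by the rule and are tested here with the limma fit adjusted over all genes. Their list was drawn up with earlier results of these data known. Of the 23, 7 did not pass the filter. Of these, 5 were listed at 0 in every sample (Atp6v1b1, Atp6v1c2, Atp6v1e2, Atp6v1g3 and Atp6ap1l), among them the B1 isoform known from the kidney, and Atp6v0a4 and Atp6v0e2 were at most at 0.0443 and 1.03 TPM. Of the 16 tested, 10 were higher and 6 lower in MSC-EV than in PBS, by a median of 0.07 on the log2 scale and a range of -0.23 to 0.33. None of the 16 was called by limma, beside 5.11% of all genes tested. At an unadjusted p of 0.05, 2 of the 16 were past it, Atp6v0a2 and Wdr7, beside 23% of all genes. Against HEK-EV, 0 of the 16 were called beside 5.91% of all genes, and 4 were past an unadjusted p of 0.05 beside 23.3%. Between HEK-EV and PBS, 0 of the 16 were past either threshold.

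Atp6v0a2, the a subunit isoform known from endosomes and the Golgi, had the lowest p of these genes and differed in the other direction. It was at 34.8, 41.7 and 36.2 TPM in PBS, 41.3, 36.6 and 39.3 in HEK-EV, and 31.2, 30.75 and 33.3 in MSC-EV. All 3 MSC-EV samples lay below the 6 others. The log2 difference was -0.23 between MSC-EV and PBS (SE 0.0801, adjusted p = 0.120 in limma) and -0.29 between MSC-EV and HEK-EV (adjusted p = 0.0640 in limma), so neither passed the threshold.

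Tcirg1, the a3 isoform known from lysosomes and from the osteoclast membrane, was at 330.5, 295 and 293 TPM in PBS. It was at 298, 306 and 278 TPM in HEK-EV and at 342, 353.5 and 303 TPM in MSC-EV. MSC-EV replicate 3 lay inside the PBS range, and the log2 difference between MSC-EV and PBS was 0.12 (adjusted p = 0.398 in limma). Among the genes for pump assembly and regulation, Dmxl1 and Wdr7, parts of the rabconnectin complex that reassembles the pump, had log2 differences of 0.33 (SE 0.156, adjusted p = 0.241) and 0.21 (adjusted p = 0.184) in limma. Atp6v1g1, a peripheral stalk subunit, had one of 0.19 (SE 0.0867, adjusted p = 0.22 in limma).

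Among the a isoforms, Tcirg1 held the largest share of TPM in every sample. Tcirg1 held 72.7%, 70.35% and 71.1% of their summed TPM on average in PBS, HEK-EV and MSC-EV. The Atp6v0a1 share was 21.1%, 16.6% and 17.2% in the PBS samples, 19.8%, 19.2% and 21.9% in HEK-EV, and 21.8%, 21.2% and 23.3% in MSC-EV. The Atp6v0a2 share was 7.51%, 10.3% and 9.09% in PBS, 9.76%, 8.62% and 9.68% in HEK-EV, and 6.53%, 6.31% and 7.59% in MSC-EV. The Atp6v0a1 shares of MSC-EV lay above those of PBS, by little over PBS replicate 1, and those of HEK-EV overlapped both. For Atp6v0a2 the shares of MSC-EV lay below those of HEK-EV and overlapped those of PBS, where PBS replicate 1 was below MSC-EV replicate 3.

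**Figure D3:**
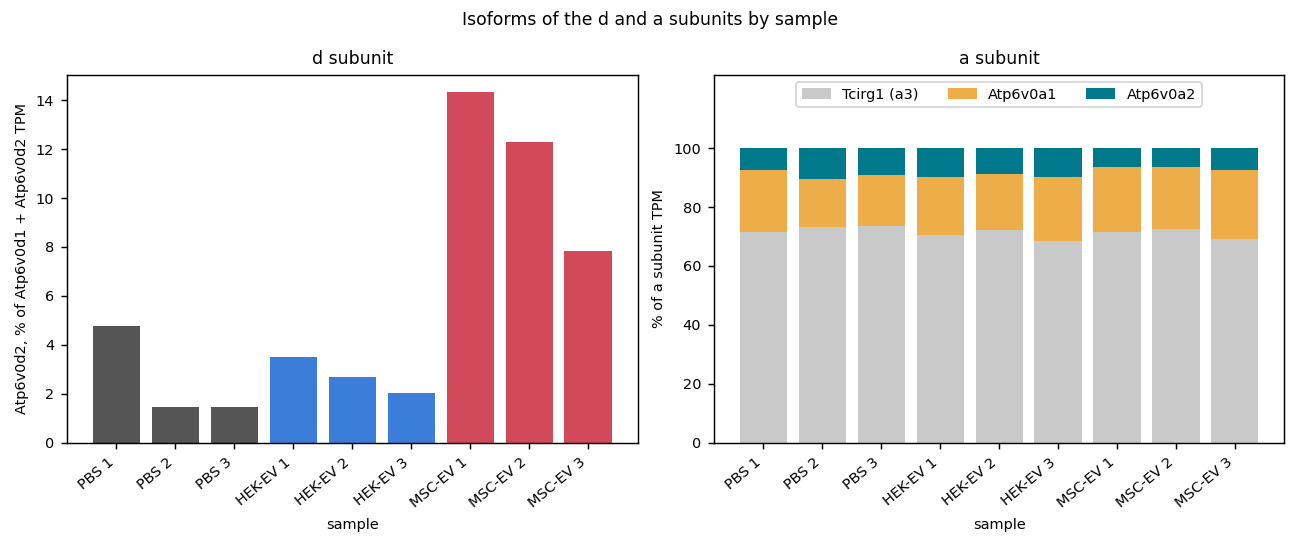
Left, Atp6v0d2 as percent of Atp6v0d1 plus Atp6v0d2 TPM in each of the 9 samples (bars, axis from 0). Right, the 3 a subunit isoforms as percent of their summed TPM. The Atp6v0d2 share was 7.83% to 14.3% in MSC-EV and 1.47% to 4.75% elsewhere, while Tcirg1 stayed the main a isoform in all 9 samples.

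Within groups, the members also varied by sample. MSC-EV replicate 3 was the lowest of its group for 9 of the 9 other members, as it was for Atp6v0d2, and PBS replicate 1 was the highest of its group for 6 of the 9. As a description over the 9 samples, Pearson's r of log2(TPM + 1) with Atp6v0d2 was 0.947 for Atp6v1c1, 0.943 for Atp6v1a, 0.900 for Atp6v0c and 0.880 for Atp6v0a1. It was 0.762 for Atp6v1d, 0.748 for Atp6v1b2, 0.697 for Atp6v0b, 0.446 for Atp6v0d1 and 0.204 for Atp6v1h. With each gene's group means taken away, r was 0.858 for Atp6v1c1, 0.872 for Atp6v1a, 0.770 for Atp6v0c and 0.741 for Atp6v0a1. It was then 0.735 for Atp6v1b2, 0.565 for Atp6v0b, 0.545 for Atp6v1d, 0.190 for Atp6v0d1 and 0.564 for Atp6v1h. Among the other pump genes tested, r over all samples ran from -0.860 (Atp6v0a2) to 0.868 (Atp6v1g1). With group means taken away it ran from -0.553 (Atp6v0a2) to 0.900 (Tcirg1). The points share their libraries and, over all 9 samples, their groups. Among 13819 other genes, Atp6v1c1 ranked 90 and Atp6v0d1 3663 by r over all samples.

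The 5 genes most alike to Atp6v0d2 by that measure were Cd28 (r = 0.995), Fabp5 (0.991), Hvcn1 (0.990), Ctsd (0.990) and Loxl3 (0.988). They were taken from genes whose mean reached 5 TPM in 1 group. Cd28 encodes a co-stimulatory receptor, Fabp5 a fatty acid binding protein, Hvcn1 a voltage-gated proton channel, Ctsd the lysosomal protease cathepsin D and Loxl3 a lysyl oxidase. With group means taken away, their r was 0.984, 0.955, 0.959, 0.945 and 0.961 in the same order. Mean Hvcn1 was 10.7 TPM in PBS, 10.9 in HEK-EV and 26.9 in MSC-EV. Mean Ctsd was 3588, 3746 and 5980 TPM in the same order. In both, MSC-EV replicates 1 and 2 were highest, MSC-EV replicate 3 came next, and PBS replicate 1 was above the other controls, as for Atp6v0d2.

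**Figure D4:**
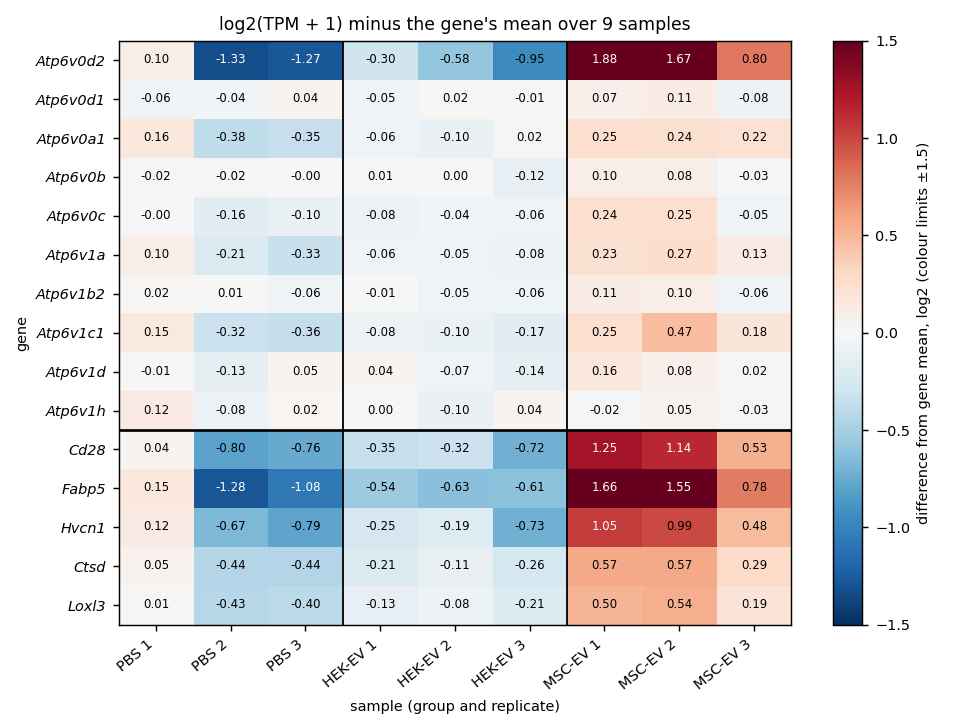
Difference of log2(TPM + 1) from the gene's mean over 9 samples (colour and printed value, colour limits ± 1.5) for the 10 members (above the line) and the 5 genes most alike to Atp6v0d2 (below it), by sample. Atp6v0d2 runs from -1.33 in PBS replicate 2 to 1.88 in MSC-EV replicate 1, and the 9 other members stay between -0.38 and 0.47.

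Markers of other cell states moved in the same samples. The marker lists were chosen with earlier results of these data known, so calls of markers, here and below, are a description. In bulk RNA, fewer cells of a type and less RNA per cell cannot be told apart. The 5 markers of lipid-associated macrophages (Trem2, Gpnmb, Spp1, Cd9 and Fabp5) summed to 1690 to 3453 TPM in PBS, 2169 to 2253 in HEK-EV and 4106 to 5707 in MSC-EV. All 5 were higher in MSC-EV than in PBS. Beside 1.86% of all genes tested, 3 were called higher by limma, Fabp5 (log2 difference 2.06), Gpnmb (1.80) and Trem2 (0.54). All 3 calls were lost without PBS replicate 2 or 3 or MSC-EV replicate 1 or 2, and that of Trem2 also without MSC-EV replicate 3 or HEK-EV replicate 1 or 2. They were also lost with no filter, with only the 6 samples compared, with an acinar term and without the 4 samples with acinar transcripts, and stood in 13, 13 and 10 of 21 alternatives in the order given. The log2 differences were 2.16, 1.75 and 0.49 with the acinar term, and 2.28, 1.99 and 0.57 without the 4 samples, where 1 MSC-EV sample remained. The 5 markers of Ly6C-high monocytes summed to 3911 to 7516 TPM in PBS, 4898 to 6599 in HEK-EV and 2213 to 3111 in MSC-EV. Of these, 5 of 5 were lower in MSC-EV than in PBS. Beside 3.25% of all genes tested, 3 were called lower (Ly6c2, Chil3 and Vcan, log2 differences -1.35, -1.40 and -1.42). These 3 calls were lost without PBS replicate 2 or 3 or MSC-EV replicate 1 or 2. That of Chil3 was also lost without HEK-EV replicate 2, and that of Ly6c2 without HEK-EV replicate 2 or 3 or MSC-EV replicate 3. All 3 were also lost with no filter and with an acinar term, and those of Ly6c2 and Chil3 with only the 6 samples compared. That of Ly6c2 was lost with FPKM and with median-of-ratios scaling too. The calls stood in 7, 12 and 14 of 21 alternatives for Ly6c2, Chil3 and Vcan. In that order, log2 differences were -1.34, -1.23 and -1.17 with the acinar term. Without the 4 samples with acinar transcripts, where 1 MSC-EV sample remained, they were -1.26, -1.498 and -1.58. Kupffer cell markers summed to 2468 to 2937, 1676 to 3492 and 1349 to 2366 TPM in PBS, HEK-EV and MSC-EV. Neutrophil markers summed to 2935 to 5451, 4901 to 6708 and 2862 to 3673 TPM in the same order. Of the 6 neutrophil markers, 5 were lower in MSC-EV than in HEK-EV, without overlap, and 1 (Ngp) was higher. In that comparison 17.5% of all genes tested were lower without overlap, and 4.4% were called lower. Of the neutrophil markers only Csf3r was called (log2 difference -0.35, adjusted p = 0.0402 in limma), a call that was not rerun under the alternatives. Gpnmb, a lysosomal membrane glycoprotein, was at 705 TPM in PBS replicate 1 and at 323 and 252 in the other controls, so that the sample high in Atp6v0d2 among the controls was high in this marker too. The part of these markers in the pump result was not tested.

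Itgam, which encodes CD11b, the sort marker, was at 288.7, 324 and 376.7 TPM in PBS, 339.4, 342.1 and 434.4 in HEK-EV, and 196.4, 234.8 and 254.7 in MSC-EV. The MSC-EV samples were below all others. The log2 difference was -0.53 between MSC-EV and PBS (adjusted p = 0.0553 in limma) and -0.70 between MSC-EV and HEK-EV (adjusted p = 0.0257 in limma). Ptprc, the pan-leukocyte gene CD45, fell in MSC-EV against PBS (log2 difference -0.46, adjusted p = 0.0271 in limma) and against HEK-EV (-0.53, adjusted p = 0.0207 in limma). The calls against HEK-EV were lost for both genes without any 1 HEK-EV sample and without MSC-EV replicate 1 or 2, and that of Itgam also with FPKM (adjusted p = 0.0507 in limma) and with no filter (adjusted p = 0.0593 in limma). Without the 4 samples with acinar transcripts, where 1 HEK-EV sample stood against 1 MSC-EV sample, neither was called, at log2 differences of -0.88 for Itgam and -0.49 for Ptprc. The call of Ptprc against PBS stood in 10 of 21 alternatives. The part of these differences in the pump result was not tested. The 5 general myeloid markers together summed to 17180 to 22560 TPM over the 9 samples, and none was at 0. Lyz2 alone held 13330 to 18740 TPM, so the sum says little about the others. Against PBS 5 of 5 were lower in MSC-EV and 1 was called, beside 3.25% of all genes called lower. Against HEK-EV 4 were lower and 1 higher, and 2 were called lower, beside 4.4% of all genes. Transcripts of cells outside the CD11b gate were present. Hepatocyte markers summed to 179.5 to 243.6 TPM in PBS, 127 to 259 in HEK-EV and 336 to 437 in MSC-EV, endothelial markers to 196 to 230, 126.5 to 278 and 77.6 to 152.5 TPM, and biliary markers to 4.51 to 5.71, 6.004 to 7.04 and 10.7 to 18.7 TPM. Between MSC-EV and PBS, 4 of 4 biliary markers were higher. Beside 1.86% of all genes tested, 3 were called higher by limma (Krt19, Epcam and Sox9, log2 differences 1.54, 1.17 and 0.72). Of the hepatocyte markers 5 of 5 were higher and 1 was called (Apoa1, 0.72). Of the endothelial markers 5 of 5 were lower and 0 were called by limma, with 5 past an unadjusted p of 0.05, beside 23% of all genes tested. Lymphocyte markers summed to at most 12.1 TPM in a sample, and 1 of the 2 tested was called higher (Nkg7, 0.70), a call that stood in 4 of 20 alternatives. The 4 biliary and hepatocyte calls against PBS were lost without PBS replicate 2 or 3 or MSC-EV replicate 2. Those other than Epcam were also lost without MSC-EV replicate 1, and those of Sox9 and Apoa1 without MSC-EV replicate 3 or HEK-EV replicate 2. All 4 were also lost with depth as a covariate and with an acinar term. Those of Krt19, Sox9 and Apoa1 were lost with only the 6 samples compared, and those of Krt19 and Apoa1 with no filter. Krt19, Epcam and Sox9 stood in 11, 14 and 9 of 20 alternatives, and Apoa1 in 9 of 21. In that order log2 differences were 1.03, 1.03, 0.69 and 0.76 with depth as a covariate, and 1.77, 1.30, 0.85 and 0.94 with the acinar term. Against HEK-EV, 3 of 5 hepatocyte markers were called higher in MSC-EV by limma (Alb, Apoa1 and Serpina1a, log2 differences 1.14, 0.79 and 0.88). So were 3 of 4 biliary markers (Krt19, Epcam and Sox9, 1.39, 0.77 and 0.65), beside 1.51% of all genes tested, and 0 of 5 endothelial markers were called. All these calls were lost without HEK-EV replicate 1 or 2 or MSC-EV replicate 1 or 2. They stood in 13, 13 and 10 of 21 and 13, 10 and 8 of 20 alternatives in the order given. The part of these markers in the pump result was not tested. The 6 pancreatic acinar markers were listed at 0 in all PBS samples and summed to 15.1 and 594.5 TPM in HEK-EV replicates 1 and 2, and to 65.8 and 1667 TPM in MSC-EV replicates 1 and 3. MSC-EV replicate 2, whose acinar sum was 0, held 30.3 TPM of Atp6v0d2. Without those 4 samples the log2 difference of Atp6v0d2 between MSC-EV and PBS was 2.502, resting on 1 MSC-EV sample. With the acinar split as a term in the fit of all 9 samples it was 2.22, and the median of the 9 other members was 0.0931. The part of acinar transcripts in the pump result was not tested.

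Since Atp6v0d2 is best known from osteoclasts, 10 genes of that cell were set beside it, of which 7 passed the filter. This list too was chosen with earlier results of these data known, so its calls are a description. In the comparison of MSC-EV with PBS, Ctsk, the bone-resorbing protease cathepsin K, rose from 4.86 ± 1.07 to 10.5 ± 2.14 TPM (SD, n = 3), a log2 difference of 0.96 (SE 0.174, adjusted p = 0.0251 in limma). Nfatc1, the master transcription factor of osteoclasts, fell from 57.7 ± 2.95 to 45.4 ± 1.92 TPM (log2 difference -0.34, SE 0.0603, adjusted p = 0.0244 in limma). Itgb3, an integrin subunit, fell too (log2 difference -0.59, adjusted p = 0.0251 in limma). The other 4 were not called, among them Acp5, the phosphatase that marks osteoclasts, at 0.02 (adjusted p = 0.946 in limma). Thus 1 of 7 was called higher and 2 lower, beside 1.86% and 3.25% of all genes tested. Calcr was listed at 0 in all samples, and Oscar and Dcstamp, a fusion protein, were at most at 0.0812 and 0.529 TPM. Against HEK-EV, Ctsk, Nfatc1 and Itgb3 were called in the same directions, and Ocstamp was also lower (adjusted p = 0.0393 in limma). Of all genes tested, 1.51% were called higher and 4.4% lower in that comparison. The calls against PBS were lost without PBS replicate 2, PBS replicate 3, MSC-EV replicate 1 or MSC-EV replicate 2, with adjusted p from 0.0745 to 0.118 in limma. All 3 were also lost with only the 6 samples compared (adjusted p 0.0565 for Ctsk, 0.0574 for Nfatc1 and 0.0578 for Itgb3), with an acinar term (log2 differences 1.11, -0.36 and -0.63) and without the 4 samples with acinar transcripts (1.14, -0.34 and -0.73). With no filter Ctsk (adjusted p = 0.0540) and Itgb3 (adjusted p = 0.0505) were lost, and Itgb3 also with depth as a covariate. Over the alternatives the call stood in 13 of 21 for Ctsk, 14 of 21 for Nfatc1 and 11 of 20 for Itgb3. Those against HEK-EV were lost without any 1 of the 3 HEK-EV samples and without MSC-EV replicate 1 or 2. That of Itgb3 was also lost with no filter (adjusted p = 0.0541 in limma). Calls against HEK-EV stood in 15 of 21 alternatives for Ctsk and for Nfatc1, and in 12 of 20 for Itgb3. Without the 4 samples with acinar transcripts, the log2 differences against HEK-EV were 1.19 for Ctsk, -0.35 for Nfatc1 and -0.76 for Itgb3. That of Ocstamp stood in 9 of 20 alternatives. It was also lost without MSC-EV replicate 3 (adjusted p = 0.0514), without PBS replicate 2 (0.0501), with no filter, with FPKM and with median-of-ratios scaling in limma.

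Promoter sequence was searched for CACGTG, the core bound by many basic helix-loop-helix factors, among them regulators of lysosomal genes. RefSeq promoter windows (GRCm38.p6, 250 bases before and 50 after the start) were matched for 6 of the 10 members: Atp6v0d1, Atp6v0a1, Atp6v0b, Atp6v0c, Atp6v1a and Atp6v1d. Atp6v0d2, Atp6v1b2, Atp6v1c1 and Atp6v1h were not matched. The motif, which reads the same on both strands, was in a promoter of 3 of the 6 genes, beside 8.09% of the 27025 genes in the table. Counted by promoter, it was in 3 of the 8 of these genes (Atp6v0c has 3), beside 7.15% of 32851 promoters of that length. The longer form with GT before it and AC after it was in 0 of the 8 and in 0.326% of all promoters. The 30-base windows around each match are written 5′ to 3′ on the gene's strand, minus in each case, with the motif in capitals. Positions count from the start used in the promoter set. The first base of the motif lay at -3 from the start for Atp6v0d1 (chr8:105566050-105566079), at -36 (chr4:117887348-117887377) and -18 (chr4:117887330-117887359) for Atp6v0b, and at -131 for Atp6v1a (chr16:44139373-44139402). For Atp6v1a that start is not the end of the gene span given above (44139702), and its window lies inside that span.
Atp6v0d1: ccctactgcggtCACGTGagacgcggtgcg
Atp6v0b, at -36: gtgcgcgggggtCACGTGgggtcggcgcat
Atp6v0b, at -18: gggtcggcgcatCACGTGcgccggtcaggt
Atp6v1a: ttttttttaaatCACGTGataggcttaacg

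The 3 members with the motif had log2 differences between MSC-EV and PBS of 0.05 (Atp6v0d1), 0.06 (Atp6v0b) and 0.36 (Atp6v1a). The 3 matched members without it had differences of 0.42 (Atp6v0a1), 0.23 (Atp6v0c) and 0.12 (Atp6v1d). The ranges overlapped. A match is a description of letters only.

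Over 21 alternative ways of processing, the log2 difference of Atp6v0d2 between MSC-EV and PBS ran from 2.03 to 3.33. The median of the 9 other members ran from 0.07 to 0.21 and was above the median of all genes in 21 of the 21. With depth as a covariate, the log2 differences of single members were 0.82 for Atp6v0a1, 0.64 for Atp6v1a and 0.80 for Atp6v1c1, against 0.42, 0.36 and 0.47 without it. The stand-in for depth, given below, was highest in the MSC-EV samples and lowest in PBS replicate 1 (5.28). Depth and group thus cannot be fully separated in that fit. With quantile normalization the log2 differences of Atp6v0b and Atp6v1b2 were 0.18 and 0.19, and with array quality weights that of Atp6v1d was 0.21. Against HEK-EV, Atp6v0d2 ran from 1.84 to 2.62 and the median of the 9 from 0.10 to 0.24.

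**Figure D5:**
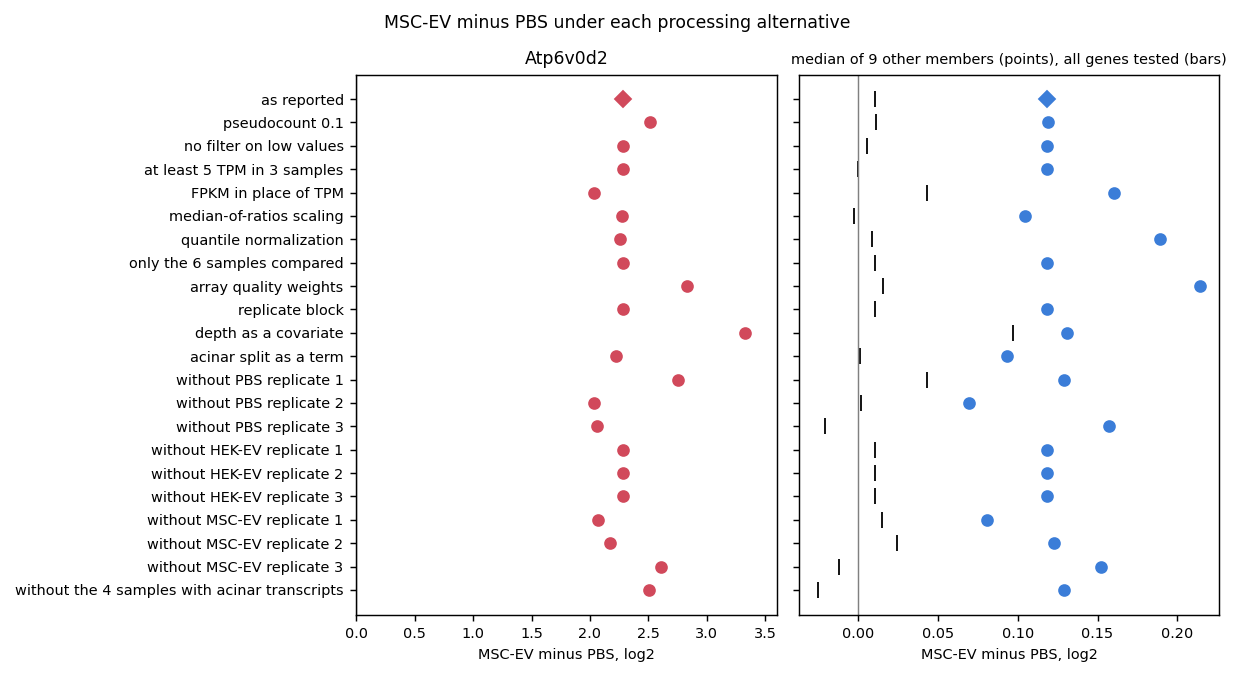
MSC-EV minus PBS on the log2 scale under each alternative (rows, the reported value as a diamond). Left, Atp6v0d2, from 2.03 to 3.33. Right, the median of the 9 other members (points), from 0.07 to 0.21, beside the median of all genes tested (bars), which reached 0.0968 with depth as a covariate.

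The depth in reads is unknown, since the values were not counts. Coverage divided by FPKM, a stand-in for depth, was 5.28 to 6.32 in PBS, 6.25 to 6.47 in HEK-EV and 6.58 to 6.84 in MSC-EV, so the MSC-EV samples were highest, and each sample had 13130 to 13633 genes at 1 TPM or more. Among the genes called between MSC-EV and PBS, 36.4% were higher in MSC-EV with TPM and 63.1% with FPKM. Against HEK-EV the share was 25.6% with TPM, 59.5% with FPKM, 43.9% with median-of-ratios scaling and 45.5% with quantile normalization. Atp6v0d1, Atp6v0b and Atp6v1b2 overlap a gene on the other strand with a mean of at most 5.18 TPM, Atp6v0a1 holds a microRNA gene on its own strand, Mir6928, at a mean of 1.01 TPM, and Atp6v0d2 overlaps none.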

How the data were processed

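The members and gene lists were chosen with earlier results of these data known. RNA of CD11b+ liver cells was made into TruSeq Stranded mRNA libraries, per the labels' protocols. HISAT2 2.1.0, StringTie and mm10 are named in the submitters' processing notes. Strand setting and annotation release are not given in the sources used here. Each table held coverage, FPKM and TPM, as deposited by the authors. The gene name column was blank, so gene IDs were matched to RefSeq GRCm38.p6 (45679 of 45777 had a symbol), and rows were summed per gene.

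The 13820 genes that reached 1 TPM in 3 or more of the 9 samples were fitted as log2(TPM + 1) with limma 3.58.1 in R 4.3.3 (eBayes with trend, 1 fit of all 9 samples), and p adjusted by Benjamini-Hochberg over all of them. An exact permutation test of 3 against 3 cannot go below p = 0.1. On 5 simulated sets of 13820 genes made for MSC-EV against PBS, limma recovered 86.4% of 2-fold and 96.2% of 4-fold changes, with 5.76% false calls. These sets drew noise for each gene on its own, without shifts shared by a whole library, and held no changes below 2-fold. The rates therefore do not cover such shifts or smaller differences. Named genes were the members, the other pump genes, osteoclast genes and the 5 most alike by Pearson's r, with cell type markers as sample checks. Python 3.11.15 with pandas 2.3.3 and matplotlib 3.10.9 served for tables and figures.

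The alternatives were FPKM, median-of-ratios scaling or quantile normalization, a minimum of 5 TPM or none, a pseudocount of 0.1, array quality weights, fits of only the 6 samples compared, terms for the replicate number, depth or the acinar split, and leaving out each sample. Leaving out the 4 samples with acinar transcripts was chosen after the data were seen.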

Additional observations from a re-analysis of the deposited data

How the results depend on the processing

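Between MSC-EV and PBS, 706 genes were called by limma. The count was 361 with no filter, 77 with only the 6 samples compared, 4163 with array quality weights, 1340 with depth as a covariate, 21 with an acinar term, 0 without the 4 samples with acinar transcripts (which leaves 1 MSC-EV sample, assumed to vary like the other groups), and 5 to 1861 when single samples were left out. Against HEK-EV, 817 were called, and 387 with no filter, 459 with FPKM, 501 with median-of-ratios scaling, 2081 with array quality weights, 1446 with depth as a covariate, 0 without the 4 samples, and 0 to 1369 when single samples were left out. Between HEK-EV and PBS, 0 were called, 4 with no filter and 0 to 2 when single samples were left out. The cause of these changes was not tested.

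Members called numbered 1 between MSC-EV and PBS. The number was 0 with no filter, with only the 6 samples, with the acinar term and without the 4 samples, 2 with FPKM (Atp6v1a beside Atp6v0d2; 4.02% of all genes), 6 with array quality weights (Atp6v0d2, Atp6v0a1, Atp6v0c, Atp6v1a, Atp6v1c1 and Atp6v1d; 30.1% of all genes), 4 with depth as a covariate (9.7% of all genes), and 0 to 4 when single samples were left out. Against HEK-EV it was 1, and 0 with no filter and without the 4 samples, 4 with only the 6 samples (7.95% of all genes), with array quality weights (15.1%) and with depth as a covariate (10.5%), and 0 to 4 when single samples were left out. The other pump genes called numbered 5 with array quality weights and 2 with depth as a covariate against PBS, with 0 to 2 when single samples were left out. Against HEK-EV they numbered 1 with only the 6 samples, 2 with array quality weights and 1 with depth as a covariate, with 0 to 1 when single samples were left out. With depth as a covariate the log2 difference of Atp6v0d2 was 3.33, from a fit in which depth and group cannot be fully separated.

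Same-numbered samples did not deviate together: r of their deviations from group means was -0.499 to 0.058 over 9 pairs, so the numbers do not pair the samples. With the replicate block 404 genes were called against PBS and 448 against HEK-EV, and no call of a member or other pump gene changed. Among the osteoclast genes and markers rerun, the block ended the calls of Ptprc, Ly6c2, Nkg7, Apoa1 and Sox9 against PBS and of Itgb3, Nkg7, Apoa1, Serpina1a and Sox9 against HEK-EV (adjusted p 0.0508 to 0.0942 in limma), and brought Ocstamp and Itgam against PBS and Mmp9 against HEK-EV past the threshold. None of the called genes rerun under the alternatives (Atp6v0d2, Ctsk, Nfatc1, Itgb3, Ocstamp, Itgam, Ptprc, Fabp5, Gpnmb and Trem2, and the Ly6C-high monocyte, biliary, hepatocyte and lymphocyte markers) changed sign in a comparison where it was called. Differences near 0 did: that of Atp6v0d2 between HEK-EV and PBS ran from -0.12 to 0.81, that of Atp6v1h between MSC-EV and PBS from -0.07 to 0.08, and that of Atp6v0d1 from -0.02 to 0.13.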

Other observations

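Atp6v0c-ps2, annotated as a pseudogene of the c proteolipid gene (chromosome 6, 37805975 to 37807107 in mm10), was listed at 297, 266 and 283 TPM in PBS, 274, 302 and 289 in HEK-EV, and 367.5, 371 and 297 in MSC-EV. Its values followed those of Atp6v0c, with MSC-EV replicates 1 and 2 highest, and its log2 difference between MSC-EV and PBS was 0.28 (SE 0.0899). Summed with its parent gene, the c proteolipid averaged 907 ± 50 TPM in PBS, 926 ± 24.6 in HEK-EV and 1083 ± 127 in MSC-EV (SD, n = 3). Whether reads of the parent gene were assigned to the copy was not tested.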
